A study of Mus musculus with 8 samples.

Results

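The immediate early transcription factors are genes that cells switch on within minutes of a stimulus, without first making new protein. The members described here are Egr1, Egr2, Egr3, Fos, Fosb, Jun, Junb, Atf3, Ier2 and Ier3. They were taken as the probe sets whose annotation names exactly 1 gene and whose gene is a member, and each of the 10 genes had 1 such probe set, among 22180 genes measured in the same way.

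The tissue was thoracic aorta of C57BL/6 mice at postnatal day 0. The groups were ascending aorta of fibulin-4 knockout pups, ascending aorta of wild-type pups, descending aorta of fibulin-4 knockout pups and descending aorta of wild-type pups. Fibulin-4 is a secreted matrix protein required for elastic fibre formation. Ascending aorta was cut between the valve and the ductus arteriosus, and descending aorta between the vena cava and the diaphragm. Each array held RNA of 8 pups of like genotype and like segment, and each group had 2 arrays, which the labels call biological replicates. The labels name no treatment, and all groups shared age, strain, dissection, snap freezing, pooling and amplification from a small amount of RNA. They do not describe how the knockout allele was made.

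Immediate early genes are held ready by serum response factor and CREB on their promoters and are switched on when ERK, JNK and p38 kinases or actin-sensing cofactors modify or join those factors. The Egr proteins are zinc finger factors, while Fos, Jun and Atf3 family proteins are leucine zipper factors that bind DNA as dimers, the AP-1 complex among them. In the vessel wall such genes are known to respond to growth factors, stretch and injury, and genes of this class also respond to the dissection of a tissue. Ier3 stands with them by its kinetics but encodes a regulator of ERK signalling and cell survival rather than a DNA-binding factor, so the name transcription factor does not describe all 10 members.

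Promoter sequences are shown for 5 members, as examples of windows that hold or lack sites through which the class is switched on. RefSeq's promoter table on build GRCm38.p6 held 7 of the 10 members and lacked Egr1, Egr3 and Ier2. The 250 bases before the annotated start are given 5′ to 3′ on the gene's strand. Capitals mark the motifs found. The Egr2 window (chr10:67537619-67537868, plus strand) is the third of 5 starts of that gene in the table, and the others are Fos (chr12:85473640-85473889, plus strand), Junb (chr8:84978749-84978998, minus strand), Fosb (chr7:19310046-19310295, minus strand) and Ier3 (chr17:35821463-35821712, plus strand).
Egr2: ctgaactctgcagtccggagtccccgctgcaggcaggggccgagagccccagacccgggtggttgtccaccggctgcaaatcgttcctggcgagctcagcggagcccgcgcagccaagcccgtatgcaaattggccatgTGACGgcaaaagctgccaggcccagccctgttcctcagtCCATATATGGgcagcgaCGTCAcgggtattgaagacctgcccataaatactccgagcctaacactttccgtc
Fos: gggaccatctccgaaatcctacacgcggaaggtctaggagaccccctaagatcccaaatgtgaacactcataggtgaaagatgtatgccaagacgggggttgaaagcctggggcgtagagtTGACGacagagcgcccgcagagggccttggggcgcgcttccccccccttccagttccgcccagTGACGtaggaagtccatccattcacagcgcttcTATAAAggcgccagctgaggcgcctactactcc
Junb: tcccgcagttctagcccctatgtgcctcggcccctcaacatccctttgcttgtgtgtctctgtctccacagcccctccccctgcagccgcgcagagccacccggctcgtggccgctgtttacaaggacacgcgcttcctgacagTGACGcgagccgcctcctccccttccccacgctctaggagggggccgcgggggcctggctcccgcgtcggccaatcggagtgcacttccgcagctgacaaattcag
Fosb: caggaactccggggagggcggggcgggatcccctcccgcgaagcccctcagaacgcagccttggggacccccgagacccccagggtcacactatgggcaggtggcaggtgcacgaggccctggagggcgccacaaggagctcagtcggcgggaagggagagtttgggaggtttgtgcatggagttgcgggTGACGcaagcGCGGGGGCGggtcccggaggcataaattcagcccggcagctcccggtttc
Ier3: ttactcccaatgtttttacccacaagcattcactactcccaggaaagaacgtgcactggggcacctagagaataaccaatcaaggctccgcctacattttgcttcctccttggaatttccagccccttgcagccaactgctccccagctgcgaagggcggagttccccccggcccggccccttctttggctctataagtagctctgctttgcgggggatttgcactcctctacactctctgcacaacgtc

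The motifs were searched on both strands: the CArG box, which serum response factor binds, the cAMP response element TGACGTCA, its core TGACG, the AP-1 site TGANTCA, the EGR site GCGNGGGCG and the TATA sequence TATAAA. The core lies within the full response element, so a full element also counts as a core. The CArG box was found before 4 of the 5 Egr2 starts and in no other member window, against 1.47% of the 32851 windows of the same length in the table. Windows of neighbouring starts overlap, and the 4 matches are 2 distinct sites, so the count of starts cannot be set against that share as if each were separate. In the Egr2 window shown, it spans bases 72 to 63 before the start and reads CCATATATGG. The core TGACG was found in Atf3, Egr2, Fos, Fosb and Junb, against 17.8% of all windows. Fos had it at bases 129 to 125 and again at bases 66 to 62 before its start, and Junb at bases 106 to 102. The full response element (1.55% of all windows) and the AP-1 site (6.75%) were found in 0 of the 7 members. Fosb held the EGR site at bases 50 to 42 (4.7% of all windows), and Fos held TATAAA at bases 33 to 28 (12.4%). The Ier3 and Jun windows held none of these letters. A match describes the letters of a window and not a bound site. Sequence outside these windows was not searched, so a window without a motif does not show that the gene lacks it.

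Some facts of the whole array set bear on every value below. The values are RMA levels on a log2 scale, so a difference of 1 is a 2-fold change of probe intensity, and levels are compared between arrays for the same gene, never between genes. On the wild-type arrays numbered 2 the values were packed more narrowly than elsewhere: their interquartile range was 1.80 in the ascending and 1.74 in the descending segment, against 2.14 to 2.28 on the other 6 arrays. All 10 smooth muscle markers were measured, with Acta2 between 12.1 and 12.4 and Eln between 11.7 and 12.1 on all arrays. Smooth muscle transcripts were therefore present throughout, but vessel and segment rest on the labels. Genotype was taken from the labels and not checked against the targeted gene. In bulk tissue, fewer cells of a type and less RNA per cell cannot be told apart.

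Egr1, a zinc finger activator induced by injury and stretch in vessels, had 7.94 and 8.51 in knockout ascending aorta, against 7.31 and 5.88 in wild-type ascending aorta. In descending aorta it had 7.32 and 7.70 in the knockout, against 7.56 and 6.24 in wild-type. Both knockout arrays lay above both wild-type arrays in the ascending segment, while in the descending segment the groups overlapped and the wild-type array numbered 1 exceeded a knockout array.

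Egr2, which in mouse directs myelination by Schwann cells and patterning of the hindbrain, had 5.63 and 5.68 in knockout ascending aorta, against 4.47 and 4.90 in wild-type ascending aorta. Its descending values were 4.97 and 4.86 in the knockout and 5.21 and 4.79 in wild-type. The knockout ascending arrays were the highest of the 8, with no overlap, and the other 3 groups overlapped each other. Egr3, which muscle spindle development in mouse requires, had 5.75 and 5.89 in knockout ascending aorta, against 4.98 and 4.88 in wild-type ascending aorta. In the descending segment Egr3 had 4.60 and 5.28 in the knockout, against 5.58 and 4.87 in wild-type. As for Egr2, the knockout ascending arrays lay above all others and the remaining groups overlapped.

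Fos, which forms AP-1 only with a Jun partner, had 6.05 and 5.33 in knockout ascending aorta, against 5.24 and 4.79 in wild-type ascending aorta. In descending aorta Fos had 5.54 and 5.53 in the knockout, against 5.36 and 4.02 in wild-type. It was the 1 member whose knockout arrays exceeded the wild-type arrays in both segments, although the wild-type descending array numbered 2 lay far below every other array. Its close relative Fosb varied least, with 4.71 and 4.62 in knockout and 4.86 and 4.22 in wild-type ascending aorta, and 5.06 and 4.62 in knockout and 4.46 and 4.59 in wild-type descending aorta. The Fosb groups overlapped in the ascending segment and were narrowly separated in the descending segment.

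Jun, the core partner of AP-1, had 7.68 and 7.05 in knockout ascending aorta, against 7.41 and 7.18 in wild-type ascending aorta. In descending aorta Jun had 7.07 and 7.33 in the knockout, against 7.46 and 6.59 in wild-type. The genotypes overlapped in both segments. Junb, a Jun relative that can restrain Jun's activity, had 7.59 and 7.08 in knockout ascending aorta, against 7.17 and 5.87 in wild-type ascending aorta. In descending aorta Junb had 6.80 and 7.09 in the knockout, against 6.47 and 5.61 in wild-type. Both narrow wild-type arrays were the lowest for Junb, and the genotypes were separated in the descending segment only. Atf3, a stress-induced member of the ATF and CREB family, had 6.57 and 6.34 in knockout ascending aorta, against 5.66 and 5.90 in wild-type ascending aorta. Its descending values were 5.64 and 5.34 in the knockout and 6.33 and 5.22 in wild-type. The ascending knockout arrays lay above all others, though the wild-type descending array numbered 1 nearly reached the lower of them.

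Ier2, a nuclear protein induced by growth factors, had 6.72 and 6.51 in knockout ascending aorta, against 7.26 and 4.91 in wild-type ascending aorta. In descending aorta Ier2 had 5.30 and 6.18 in the knockout, against 6.07 and 5.26 in wild-type. The wild-type ascending arrays were both the highest and the lowest of the 8. Ier3 had 8.62 and 8.94 in knockout ascending aorta, against 6.96 and 6.55 in wild-type ascending aorta. In descending aorta Ier3 had 7.19 and 8.30 in the knockout, against 7.36 and 6.46 in wild-type. The ascending genotypes were widely separated, and a knockout descending array also lay above every wild-type array.

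**Figure D1:**
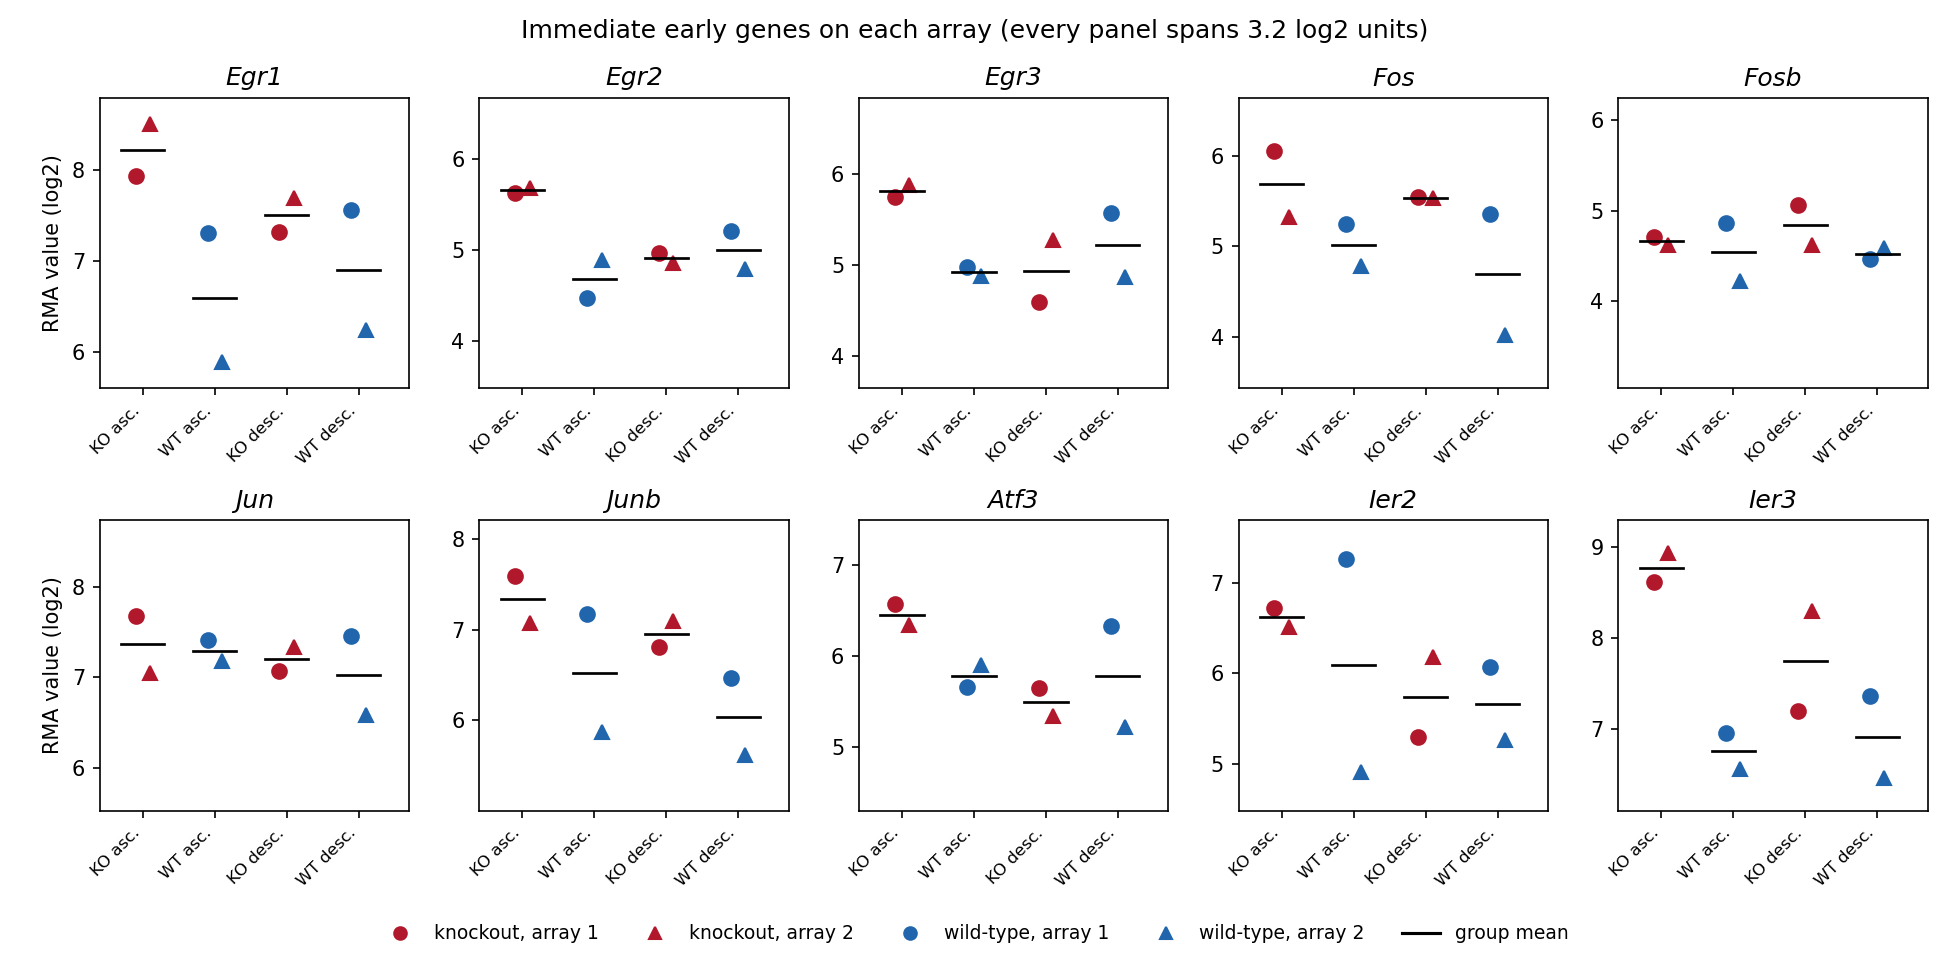
RMA level (log2, vertical axis) of each immediate early gene on each of the 8 arrays; red marks knockout and blue wild-type arrays, circles array 1 and triangles array 2 of a group, and black lines the group means. Each panel has the same span, and the knockout ascending mean is the highest in 9 of the 10 panels, Fosb being the exception.

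Among the 4 groups the mean was highest in knockout ascending aorta for 9 members, against 23.4% of all genes, and in knockout descending aorta for Fosb. It was lowest in wild-type descending aorta for 5 members, in wild-type ascending aorta for 4 and in knockout descending aorta for Atf3. Of the 30 neighbouring pairs of groups in these orders, 24 overlapped in their arrays and 6 did not, a count near that over all genes, where 21.4% of such pairs did not overlap. The 6 were knockout ascending aorta against the next group for Egr1, Egr2, Egr3, Atf3 and Ier3, and knockout descending against wild-type ascending aorta for Fos. Knockout ascending aorta was highest and apart from the next group for 5 of the 10 members, against 5.78% of all genes. Expressed as the deviation of the 10 members from their own means, the arrays stood at 0.64 and 0.51 in knockout ascending aorta, against 0.05 and -0.58 in wild-type ascending aorta. In descending aorta they stood at -0.14 and 0.14 in the knockout, against 0.10 and -0.72 in wild-type. The narrow wild-type arrays were the lowest of the 8, and the other wild-type arrays lay among the knockout descending arrays.

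The study set out to find genes whose expression differs with genotype and segment. Averaged over both segments, all 10 members had a higher mean in knockout than in wild-type aorta, by 0.13 to 1.43 with a median of 0.37, while the median over all genes was -0.00 and 49.8% of genes were above 0. No member passed a Benjamini-Hochberg adjusted p under 0.05 in limma, a linear model fitted over all genes, where 0.0721% of genes did. At an unadjusted p under 0.05, Egr1, Egr2, Fos, Junb and Ier3 were higher, 5 of 10, against 7.57% of all genes, and 0 were lower, against 3.83% (11.4% in either direction). Ier3 differed most, by 1.43 (SE 0.29, limma adjusted p = 0.146), a 2.69-fold difference. Egr1 differed by 1.12 (SE 0.37, limma adjusted p = 0.342), Junb by 0.86 (SE 0.32), Fos by 0.76 (SE 0.30) and Egr2 by 0.44 (SE 0.19). The other 5 differed by 0.13 (Jun) to 0.30 (Egr3 and Ier2), with intervals that include 0. The count of 5 became 1 without the wild-type descending array numbered 2, 2 without knockout ascending array 1 or knockout descending array 2, and 3 without the wild-type ascending array numbered 2, knockout ascending array 2 or knockout descending array 1. The median reached 0.62 without the wild-type ascending array numbered 1. Within both segments together 1 member, Fos, had every knockout array above every wild-type array of its segment, against 7.81% of genes, and for 0 members did all 4 knockout arrays exceed all 4 wild-type arrays, against 4.76%. Differences followed level across all genes: the median was 0.24 in the 4436 brightest genes, which hold Egr1, Jun, Junb and Ier3, 0.14 in the next 4436, which hold Atf3 and Ier2, -0.04 in the middle 4436, which hold Egr2, Egr3 and Fos, and -0.12 in the 4436 that hold Fosb.

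In the ascending aorta the members' median difference between knockout and wild-type was 0.74, against -0.01 over all genes, and all 10 were above 0, where 49.3% of genes were. None passed an adjusted p under 0.05 in limma, and neither did any other gene (0%). At an unadjusted p under 0.05, 4 members were higher, against 5.31% of genes, and 0 were lower, against 3.60% (8.90% in either direction). These were Ier3, higher by 2.02 (SE 0.42, limma adjusted p = 0.251, 95% interval 1.09 to 2.95, or 4.06-fold), Egr1, by 1.63 (SE 0.52), Egr2, by 0.98 (SE 0.27), and Egr3, by 0.89 (SE 0.32). Ier3 averaged 8.78 ± 0.23 in knockout and 6.76 ± 0.29 in wild-type ascending aorta (SD, n = 2 each). Junb (0.81, SE 0.45), Fos (0.67, SE 0.43), Atf3 (0.67, SE 0.36) and Ier2 (0.53, SE 0.65) had intervals that include 0, and Fosb (0.13) and Jun (0.07) differed by less than their SE. The arrays of both genotypes did not overlap for 6 members (Egr1, Egr2, Egr3, Fos, Atf3 and Ier3), against 21.5% of all genes with every knockout array higher. The count of 4 was 2 without the wild-type ascending array numbered 2 or knockout ascending array 2, and 6 without the wild-type ascending array numbered 1.

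In the descending aorta the median difference between knockout and wild-type was 0.24, against 0.03 over all genes, with 7 of 10 members above 0, where 53.7% of genes were. None was called, against 0.00451% of genes (1 gene), and 0 passed an unadjusted p under 0.05 in either direction, against 3.63% of genes higher, 2.32% lower and 5.95% in either direction. The largest differences were those of Junb (0.91, SE 0.45), Fos (0.84, SE 0.43) and Ier3 (0.83, SE 0.42), with a smallest limma adjusted p of 0.843. Egr1 differed by 0.61 (SE 0.52), while Egr2 (-0.09), Egr3 (-0.29) and Atf3 (-0.28) had the lower mean in the knockout, each by less than its SE. Every knockout array lay above every wild-type array for 3 members (Fos, Fosb and Junb), against 21.6% of genes. The median depended on the wild-type arrays: it was -0.15, with 4 members above 0, without the wild-type descending array numbered 2, and 0.54, with all 10 above 0, without the wild-type descending array numbered 1. It was 0.41 without knockout descending array 1 and 0.16 without knockout descending array 2.

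**Figure D2:**
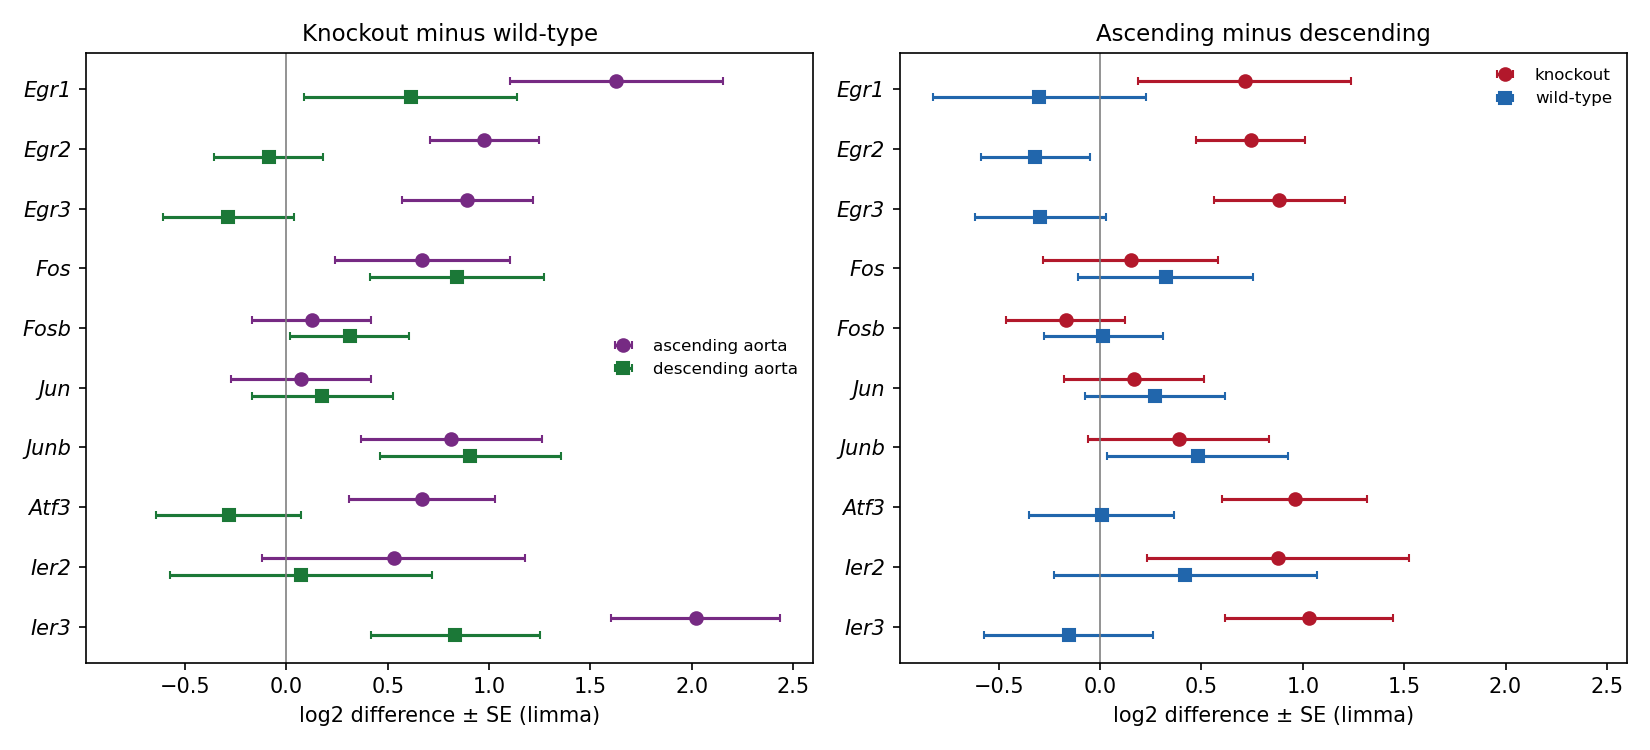
Log2 differences with standard errors (limma, horizontal axes) of each immediate early gene. The left panel gives knockout minus wild-type in ascending (purple circles) and descending aorta (green squares), the right panel ascending minus descending in knockout (red circles) and wild-type aorta (blue squares); Ier3 lies at 2.02 in the ascending and 0.83 in the descending segment, and Egr2, Egr3 and Atf3 lie above 0 in the ascending segment and below 0 in the descending segment.

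Whether the genotype difference itself differed between segments was tested as an interaction. The ascending minus the descending difference had a median of 0.70 over the members, against -0.03 over all genes, with 6 of 10 above 0, where 47.6% of genes were. No gene was called (0%), and every member's limma adjusted p was 1.00. At an unadjusted p under 0.05, Egr2 (1.06, SE 0.38) and Egr3 (1.18, SE 0.46) were higher, 2 members against 1.62% of genes, and 0 were lower, against 1.68% (3.30% in either direction). That count ran from 0, without the wild-type descending array numbered 1 or knockout ascending array 2, to 4, without the wild-type descending array numbered 2. Ier3 (1.19, SE 0.59), Egr1 (1.01, SE 0.74) and Atf3 (0.95, SE 0.51) were of like size with wider errors, and Ier2 stood at 0.46 (SE 0.92). Fosb (-0.19), Fos (-0.17), Jun (-0.11) and Junb (-0.09) differed by less than their SE. These signs depended on single arrays: 10 of 10 members were above 0 without the wild-type ascending array numbered 1, 9 without the wild-type descending array numbered 2 or knockout ascending array 2, and 5 without the wild-type ascending array numbered 2. Without both narrow wild-type arrays Fos stood at 0.27, Jun at 0.22 and Ier2 at -0.32. The median was 0.04 without the wild-type ascending array numbered 2, 0.20 without the wild-type descending array numbered 1, 0.33 without knockout descending array 1, and 1.07 without the wild-type descending array numbered 2.

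Segments were also compared within each genotype. In the knockout, 9 of 10 members had the higher mean in ascending than in descending aorta, with a median of 0.73 against -0.01 over all genes, of which 48.3% were above 0. No member and no other gene was called (0%). At an unadjusted p under 0.05 Ier3 (1.03, SE 0.42), Atf3 (0.96, SE 0.36), Egr3 (0.88, SE 0.32) and Egr2 (0.74, SE 0.27) were higher, 4 members against 2.00% of genes, and 0 were lower, against 2.04% (4.04% in either direction). Leaving out knockout ascending array 1 or 2 brought this count to 0, leaving out knockout descending array 1 to 1 and leaving out knockout descending array 2 to 2, and the median was 0.46 without knockout descending array 1. Both ascending arrays lay above both descending arrays for 6 members (these 4, Egr1 and Ier2), against 18.3% of genes. In wild-type aorta the median was 0.01, as over all genes, with 6 of 10 above 0 where 51.7% of genes were. No member was called, against 0.00902% of genes, 0 passed an unadjusted p under 0.05, against 3.21% of genes higher and 2.98% lower (6.19% in either direction), and for 0 members did every ascending array exceed every descending array, against 15.9% of genes. The wild-type median was -0.24 without the wild-type ascending array numbered 1 and 0.36 without the one numbered 2, 0.46 without the wild-type descending array numbered 1 and -0.44 without the one numbered 2, with 3 to 8 members above 0. Without both narrow arrays it was -0.18, with 3 of 10 above 0. These comparisons share arrays with the genotype comparisons, so their values stand side by side and are not independent.

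Because the narrow wild-type arrays were the lowest for the members, the fit was repeated without both. Leaving out low wild-type arrays raises the members' wild-type mean, so a smaller average difference followed from that choice. In the ascending aorta the median was then 0.62, with 7 of 10 above 0, where 47.2% of genes were. In this fit 5 members were higher at an unadjusted p under 0.05, against 8.60% of genes, and 11 genes but 0 members were called. The 5 were Ier3 (1.82, SE 0.44), Egr2 (1.19, SE 0.25), Egr1 (0.92, SE 0.33), Egr3 (0.84, SE 0.33) and Atf3 (0.79, SE 0.28), with a smallest limma adjusted p of 0.109. Junb stood at 0.16 there, and Ier2 at -0.64 where all arrays gave 0.53. In the descending aorta the median was -0.15, and Atf3 was lower in the knockout at an unadjusted p under 0.05, by -0.84 (SE 0.28, limma adjusted p = 0.653), as were 3.22% of genes. Averaged over segments the median was 0.20, with 7 of 10 above 0, against 0.37 with all arrays, and the count at an unadjusted p under 0.05 was 2 in place of 5, against 6.76% of genes. These were Ier3 (1.10, SE 0.31) and Egr2 (0.45, SE 0.18), while Egr1 stood at 0.43 in place of 1.12, Junb at 0.32 in place of 0.86 and Fos at 0.31 in place of 0.76. Each wild-type group then has 1 array, whose spread is taken to be that of the other groups.

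**Figure D3:**
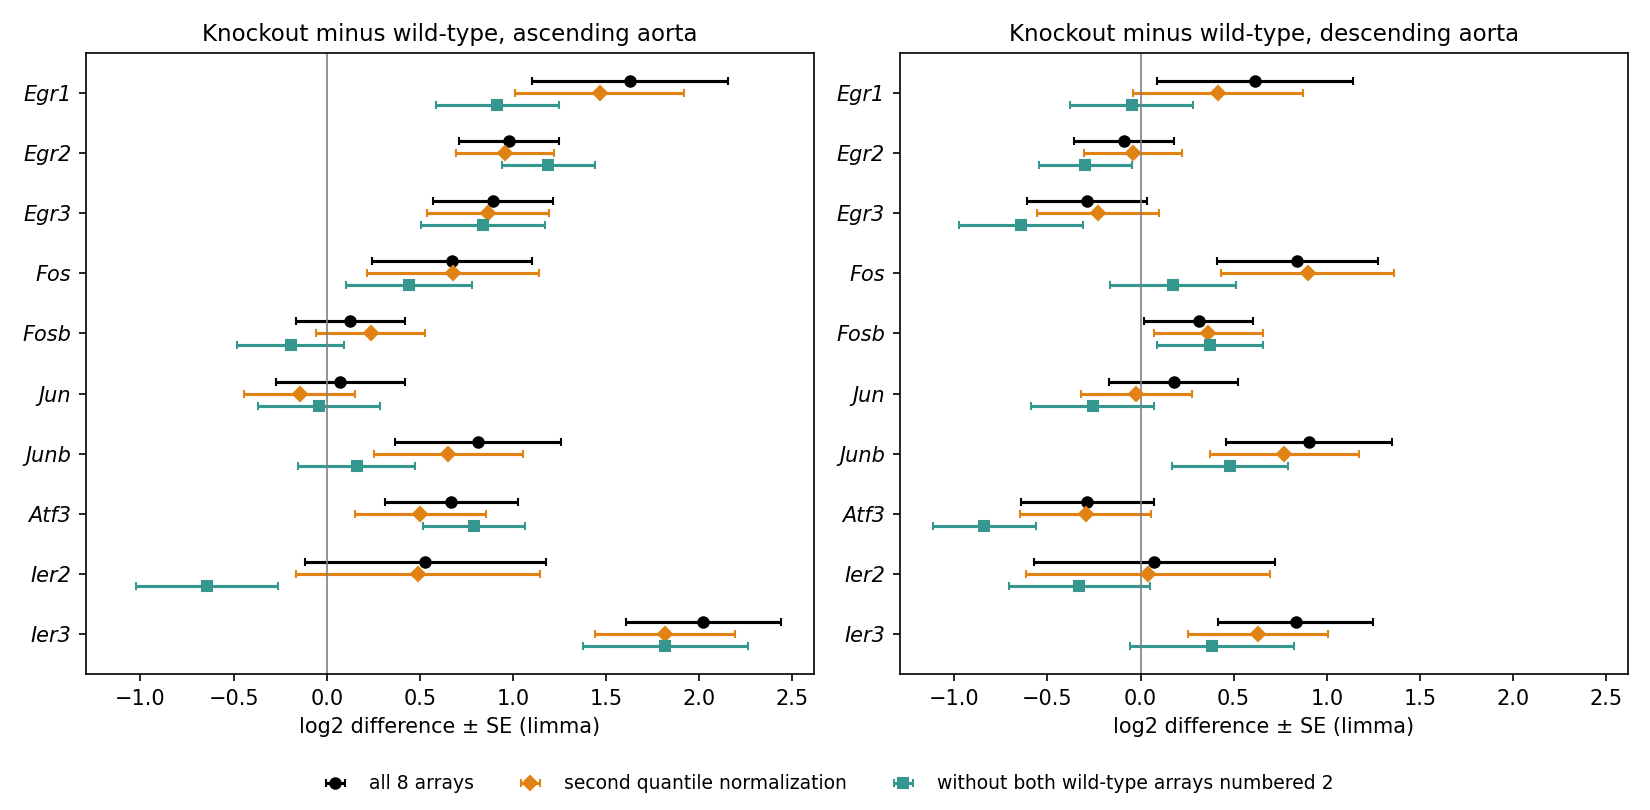
Knockout minus wild-type log2 difference with standard error (limma) for each immediate early gene in ascending (left) and descending aorta (right), with all 8 arrays (black circles), after a second quantile normalization (orange diamonds) and without both wild-type arrays numbered 2 (green squares). In the ascending segment Ier3 stays between 1.81 and 2.02 and Egr2 and Egr3 stay at or above 0.84, while Ier2 moves to -0.64; in the descending segment Egr1 moves to -0.05 without the narrow arrays.

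The members varied together across arrays to differing degrees. Over the 8 arrays, Pearson's r between members had a median of 0.55 over 45 pairs and ran from -0.23 to 0.90 (Egr1 with Ier3), with 42 pairs above 0. After each group's mean was removed the median was 0.52. Egr1 followed the mean of the other members most closely (r = 0.91), then Junb (r = 0.88) and Ier3 (r = 0.86), and Fosb least (r = 0.25). These correlations describe 8 arrays that share groups, normalization and the narrow wild-type arrays, and carry no test. The genes outside the list whose profile was most like the members' mean over the 8 arrays were Erbb4 (r = 0.99), Fgfrl1 (0.99), Vmp1 (0.97), Tmem33 (0.97), Stfa3 (0.96), Helz2 (0.96), Myc (0.96), Nudcd3 (0.96), Secisbp2l (0.96) and Fyb (0.95). Myc, itself an immediate early factor, had 7.86 and 8.21 in knockout ascending aorta, against 7.36 and 6.53 in wild-type ascending aorta, and 7.04 and 7.47 in knockout descending aorta, against 7.28 and 6.61 in wild-type descending aorta. The genes most like Egr1 were Itgb3, Lats2, Nek6, Atic and Zfc3h1, with r between 0.97 and 0.98. Each of these genes had their lowest values on both narrow wild-type arrays.

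The regulators upstream of the members were measured for 14 of 18 listed genes. In the averaged knockout effect 11 of 14 were above 0, with a median of 0.22, 3 were higher at an unadjusted p under 0.05, 0 were lower and 0 were called in limma. Over all genes 49.8% were above 0 and 7.57% were higher at that threshold, shares that stand beside the averaged counts of the lists that follow. The median of the upstream regulators lay between the 0.24 of the 4436 brightest genes and the 0.14 of the next 4436. The list was not matched to either set by level. Its median was 0.15, with 8 of 14 above 0, without both narrow wild-type arrays. Mrtfa, an actin-sensing cofactor, had a difference of 0.73 (SE 0.19), Srf, the factor that binds the CArG box, 0.68 (SE 0.17), Map2k1, the kinase that activates ERK, 0.66 (SE 0.23), and Mrtfb 0.37 (SE 0.18). Srf had 7.68 and 7.72 in knockout ascending aorta, against 7.05 and 6.76 in wild-type ascending aorta. In descending aorta Srf had 7.05 and 7.29 in the knockout, against 6.60 and 6.61 in wild-type. For Srf every knockout array lay above every wild-type array of its segment, as for 7.81% of all genes. Srf was named because its p-value was among the smallest of the list.

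Among other immediate early factors, measured for 21 of 22, 16 were above 0 in the averaged effect, with a median of 0.32, 5 were higher at an unadjusted p under 0.05 and 0 were called in limma. Leaving out both narrow wild-type arrays gave a median of 0.15. Nr4a1, an orphan nuclear receptor, differed by 0.81 (SE 0.22), Fosl2, another AP-1 subunit, by 0.77 (SE 0.18), Myc by 0.70 (SE 0.25) and Nr4a3 by 0.59 (SE 0.23). Fosl2 had 7.10 and 7.36 in knockout ascending aorta, against 6.31 and 6.52 in wild-type ascending aorta. Its descending values were 6.73 and 7.16 in the knockout and 6.26 and 6.17 in wild-type. For Fosl2 and Nr4a1 every knockout array lay above every wild-type array, as for 4.76% of all genes. Both were named because their p-values were among the smallest of the list, so this does not compare the list with the members.

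Feedback inhibitors, which shut immediate early signalling off again, were measured for 22 of 22 genes. In the averaged effect 20 were above 0, with a median of 0.34, which was 0.25 without both narrow wild-type arrays. With all arrays, 8 were higher at an unadjusted p under 0.05, and 1 was called. This was Errfi1, an inhibitor of the EGF receptor, which rose by 1.52 (SE 0.19, limma adjusted p = 0.0242). Errfi1 had 8.39 and 8.58 in knockout ascending aorta, against 6.67 and 7.01 in wild-type ascending aorta, and 8.38 and 8.47 in knockout descending aorta, against 6.85 and 7.22 in wild-type descending aorta. It was higher by 1.65 in the ascending and 1.39 in the descending segment, and the genotypes overlapped in neither. Zfp36, which degrades short-lived messages of this class, differed by 1.19 (SE 0.26, limma adjusted p = 0.170), Btg2 by 0.84 (SE 0.21) and Btg1 by 0.78 (SE 0.18). The call of Errfi1 held in 9 of 17 alternatives and ended after a second quantile normalization (adjusted p = 0.178), over every probe set (0.265), without either wild-type descending array (0.104 and 0.0796) and without any 1 of the knockout arrays (0.133 to 0.226). Its difference stayed between 1.28 and 1.69 in all 17.

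Genes listed as reported targets of Egr1 or AP-1 in the vessel wall were measured for 24 of 26. The list was chosen with earlier results of these data known, so its counts are a description and not a test. In the averaged effect 22 were above 0, with a median of 0.59, 15 were higher at an unadjusted p under 0.05, 0 were lower and 1 was called. Thbs1, which encodes thrombospondin 1 of the matrix, rose by 2.54 (SE 0.26, limma adjusted p = 0.0144). Its values were 9.50 and 10.05 in knockout ascending aorta, against 6.74 and 7.10 in wild-type ascending aorta, and 8.61 and 9.06 in knockout descending aorta, against 7.08 and 6.15 in wild-type descending aorta. All 4 knockout arrays lay above all 4 wild-type arrays. Ankrd1, a stretch-responsive nuclear protein, differed by 2.30 (SE 0.35, limma adjusted p = 0.0820), Plaur, the urokinase receptor, by 1.21 (SE 0.17, adjusted p = 0.0540) and Hbegf, an EGF receptor ligand, by 1.17 (SE 0.20, adjusted p = 0.0989). Hbegf had 7.75 and 8.03 in knockout ascending aorta, against 5.84 and 6.19 in wild-type ascending aorta, and 6.49 and 6.66 in knockout descending aorta, against 5.82 and 6.41 in wild-type descending aorta. The list's median was 0.74 in the ascending and 0.48 in the descending aorta, and 0.51 averaged without both narrow wild-type arrays. The call of Thbs1 held in 10 of 17 alternatives, and ended after a second quantile normalization (adjusted p = 0.0569), over every probe set (0.265), without the wild-type descending array numbered 2 (0.0571) and without any 1 of the knockout arrays (0.0979 to 0.141). Its difference stayed between 2.31 and 2.78 in all 17.

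Chaperones of the heat shock response, which are also known to respond to dissection, were also above 0 in the knockout. Of 11 measured of 12, all 11 were above 0 in the averaged effect, with a median of 0.28, and 3 were higher at an unadjusted p under 0.05, with 0 called in limma. The median was 0.53 in the ascending and 0.06 in the descending aorta, and the averaged median lay near the 0.24 of the 4436 brightest genes. The chaperones were not matched to those genes by level. Hsph1 differed by 0.75 (SE 0.22), Bag3 by 0.66 (SE 0.23), Hspb1 by 0.62 (SE 0.18) and Hspa1b by 0.56 (SE 0.29). Hspa1b had 6.30 and 6.32 in knockout ascending aorta, against 5.05 and 5.42 in wild-type ascending aorta, and 5.66 and 5.72 in knockout descending aorta, against 6.35 and 4.94 in wild-type descending aorta. Genes of the integrated stress response, 13 measured of 14, had a median of 0.15 with 12 above 0, 3 higher at an unadjusted p under 0.05 and 0 called. Ddit4 differed by 0.92 (SE 0.39), Slc7a11 by 0.62 (SE 0.21), Sesn2 by 0.45 (SE 0.23) and Asns by 0.40 (SE 0.16). The part of handling in the members' values was not tested.

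**Figure D4:**
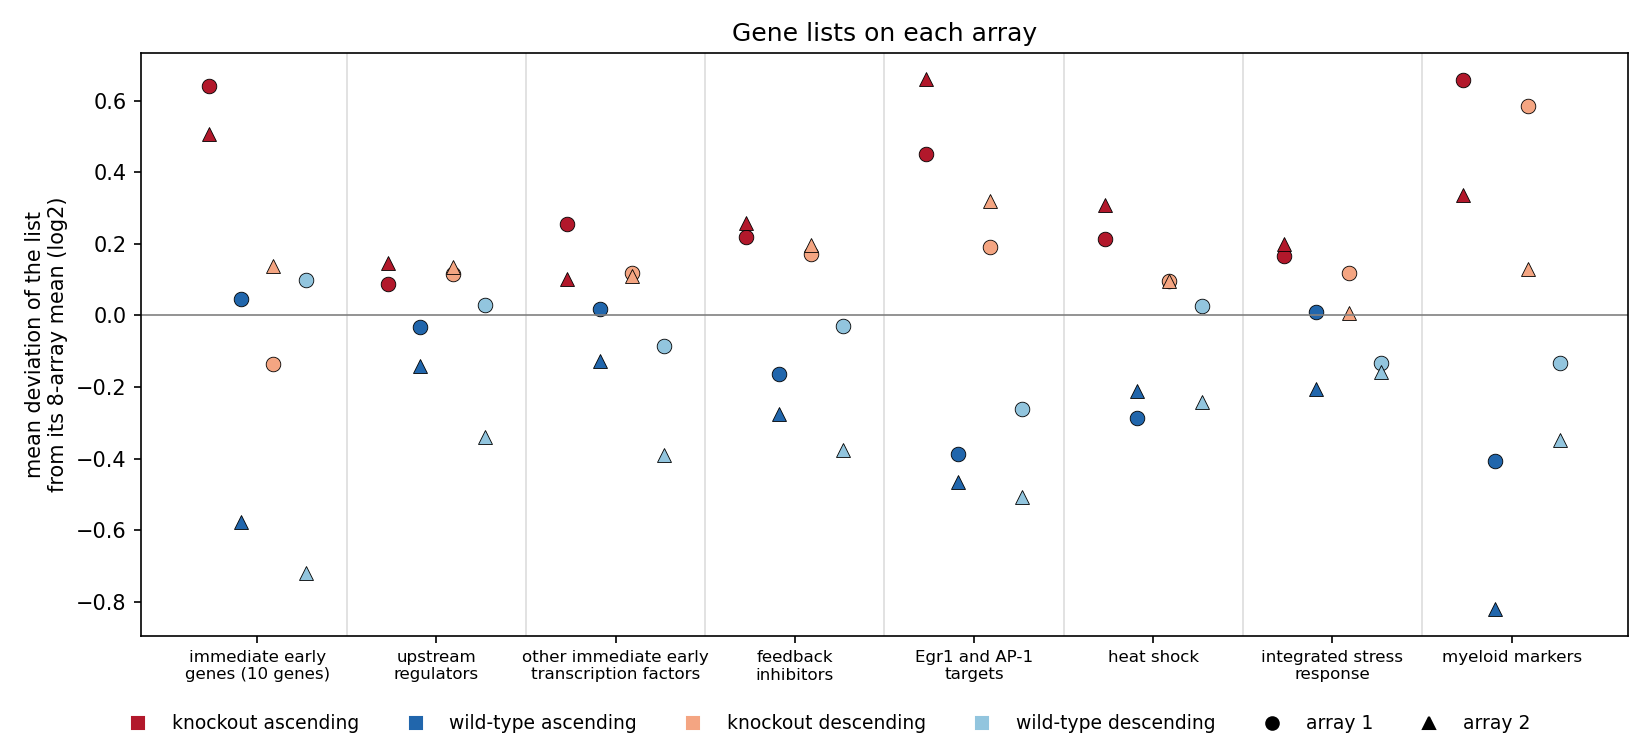
Mean deviation of each gene list from its own mean over the 8 arrays (log2, vertical axis), 1 point per array, with knockout ascending in dark red, wild-type ascending in dark blue, knockout descending in light red and wild-type descending in light blue, circles for array 1 and triangles for array 2. The immediate early genes reach 0.64 and 0.51 on the knockout ascending arrays and -0.58 and -0.72 on both wild-type arrays numbered 2, while the Egr1 and AP-1 targets lie above 0 on all 4 knockout arrays and below 0 on all 4 wild-type arrays.

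Markers of some other cell types also differed with genotype, although 0 markers were called in limma. All 10 myeloid markers were above 0 in the averaged effect, with a median of 0.89 and 8 higher at an unadjusted p under 0.05. Without both narrow wild-type arrays this median was 0.64. The summed level of these markers on a linear scale was 2840 to 3511 in knockout ascending aorta, against 1133 to 2074 in wild-type ascending aorta. In descending aorta it was 2362 to 3495 in the knockout, against 1905 to 2252 in wild-type. Endothelial markers had a median of -0.13 in the descending aorta, and of -0.44 without both narrow wild-type arrays. In the ascending aorta the median was -0.76 without those arrays. With all arrays it was -0.71 there, with 6 of 10 lower at an unadjusted p under 0.05 in limma, against 3.60% of genes. Their sums there were 918 to 1007 in knockout against 1464 to 1796 in wild-type. Skeletal muscle markers had a median of -1.94 there, with 9 of 9 below 0 and sums of 539 to 1282 in knockout against 2108 to 6000 in wild-type. Without both narrow wild-type arrays this median was -0.93. In the descending aorta the list's median was 0.58 with all arrays, with 6 of 9 above 0, and 0.33 without both narrow arrays. Cardiomyocyte markers had a median of 0.84 in the descending aorta, with sums of 3786 to 4053 in knockout against 1002 to 2178 in wild-type. Without both narrow wild-type arrays this median was 0.38. Adipocyte markers had a median of -0.85 in the averaged effect, with 8 of 8 below 0. Smooth muscle markers had an averaged median of 0.27 and fibroblast markers 0.22, near the 0.24 of the 4436 brightest genes. Neuron and Schwann cell markers had 0.19 (6 of 8 measured) and the 1 of 5 erythroid markers that was measured -0.0019. The lowest marker value on any array was 3.44, in the neuron and Schwann cell list, and a value above 0 does not show that a marker was expressed. The part of these cell types in the members' values was not tested.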

How the data were processed

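Each of the 8 arrays measured a pool of newborn aortic segments. The authors deposited log2 values per probe set, which the submitters' processing notes tie to RMA and Affymetrix Expression Console; build and versions are not given in sources used here. RMA subtracts background and normalises between arrays, and it shrinks the differences of dim genes. Of 41345 probe sets, 23521 carried 1 gene symbol, 1814 several and 16010 none, by the platform annotation. For 1082 genes with more than 1 probe set the one with the highest mean was used, giving 22180 genes.

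Groups came from the labels. limma 3.58.1 (R 4.3.3) was fitted to these log2 values with a mean per group over all 8 arrays (4 residual and 5.52 prior degrees of freedom), and p-values were adjusted over all genes by Benjamini-Hochberg with a threshold of 0.05. With 2 arrays a group, the median standard error of a difference was 0.30 within a segment and 0.21 averaged. Where nothing says that pools of a group shared no litter, p-values measure the spread between pools. The code was tested on simulated data. Members and lists were chosen with earlier results of these data known. All 10 members are named, then up to 4 genes of each related list by smallest unadjusted p in the averaged effect, then the 10 genes most correlated with the members' mean and the 5 most correlated with Egr1 (predicted, small RNA and receptor genes of smell left out).

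Alternatives were median centring, another round of quantile normalization, removal of the dimmest 25% of genes, averaging a gene's probe sets, testing every probe set, a block for replicate number, trend and robust fitting, weights per array, only the groups compared, and omission of each array or of both wild-type arrays numbered 2. Plots used matplotlib 3.10.9 (Python 3.11.15).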

Additional observations from a re-analysis of the deposited data

How the results depend on the processing

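Under each alternative (17 for the averaged effect) 0 members passed an adjusted p under 0.05, with a smallest adjusted p of 0.0980 (Ier3, averaged effect, dimmest 25% of genes left out). Over all genes, 16 were called in the averaged effect, against 2 after a second quantile normalization, 35 without the dimmest genes, 1 over every probe set, 25 without both wild-type arrays numbered 2, and 0 to 50 when each array was left out in turn (0 without knockout ascending array 2, 50 without wild-type ascending array 1). The fit with replicate number as a block gave 19 calls, the members' median of 0.37 unchanged, and smallest adjusted p of 0.158 averaged, 0.245 ascending and 0.700 descending. Under the block the members at an unadjusted p under 0.05 numbered 4 in place of 5 averaged and 2 in place of 0 in the descending aorta, and no member's call changed. The labels do not say that equal numbers share a pool or day. Deviations of same-numbered arrays correlated between groups at -0.08 to 0.29, highest between both wild-type groups, whose arrays numbered 2 share the narrow spread, so the values leave pairing unsettled and the block is given only here.

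Of 60 member differences, 29 changed sign in an alternative; none of the 60 was called, and the cause was not tested. After a second quantile normalization Jun stood at -0.084 averaged, -0.15 in the ascending and -0.022 in the descending aorta. Without both wild-type arrays numbered 2, the averaged differences were -0.15 (Jun), -0.024 (Atf3) and -0.49 (Ier2). The ascending ones were -0.19 (Fosb), -0.043 (Jun) and -0.64 (Ier2), and the descending ones -0.047 (Egr1), -0.26 (Jun) and -0.33 (Ier2). Ascending minus descending in wild-type was -0.12 (Fos), -0.049 (Jun) and -0.67 (Atf3), and the interaction was 0.27 (Fos), 0.22 (Jun) and -0.32 (Ier2).

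When each array was left out in turn, the averaged differences that changed sign ranged from -0.093 to 0.34 (Jun), -0.085 to 0.47 (Atf3) and -0.29 to 0.89 (Ier2). In the ascending aorta they ranged from -0.19 to 0.45 (Fosb), -0.24 to 0.38 (Jun) and -0.64 to 1.70 (Ier2). In the descending aorta the ranges were -0.047 to 1.27 (Egr1), -0.30 to 0.12 (Egr2), -0.64 to 0.067 (Egr3), -0.26 to 0.61 (Jun), -0.84 to 0.27 (Atf3) and -0.37 to 0.51 (Ier2). Between segments of the knockout they were -0.21 to 0.51 (Fos), -0.39 to 0.050 (Fosb) and -0.15 to 0.48 (Jun). Between segments of wild-type they were -1.01 to 0.41 (Egr1), -0.65 to 0.059 (Egr3), -0.35 to 0.99 (Fos), -0.30 to 0.34 (Fosb), -0.16 to 0.71 (Jun), -0.17 to 1.13 (Junb), -0.55 to 0.56 (Atf3), -0.75 to 1.59 (Ier2) and -0.61 to 0.29 (Ier3). For the interaction they were -0.84 to 0.50 (Fos), -0.51 to 0.13 (Fosb), -0.54 to 0.33 (Jun), -0.75 to 0.56 (Junb) and -0.72 to 1.63 (Ier2). The ascending differences of Egr1, Egr2, Egr3, Fos, Junb, Atf3 and Ier3 stayed above 0 in the 18 alternatives run for that segment.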
